A study of Mus musculus with 3 samples.

Results

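The genes described here are 32 genes of glucose uptake, glycolysis, lactate production and export, and the entry of pyruvate into mitochondria, in CD4-positive effector memory alpha-beta T cells of the mouse. They were chosen by function and found by their GENCODE M21 symbols, and make up 32 of the 55536 genes, of which 22028 are protein-coding, in the deposited gene tables. The cells came from 1 C57BL/6J animal, a male of 7 months, and no genetic change or treatment is named. PolyA RNA of that 1 biological replicate was sequenced in 3 libraries, which the labels call technical replicates 1, 2 and 3, so there is 1 group and no comparison of conditions. How the cells were sorted and rested or stimulated is not given in the sources used here. Every SD below is over 3 libraries and measures technical spread within 1 mouse, and an exact two-sided permutation test of 3 values against 3 cannot go below p = 0.1.

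Glycolysis splits glucose into pyruvate in the cytosol and yields ATP and NADH without oxygen. Lactate dehydrogenase turns pyruvate into lactate and restores the NAD+ that glyceraldehyde-3-phosphate dehydrogenase needs, while pyruvate dehydrogenase sends pyruvate carbon into the tricarboxylic acid cycle, and its kinases switch that enzyme off. Resting T cells rely largely on mitochondrial oxidation, activated T cells raise glucose uptake and lactate output, and memory T cells are known to restart glycolysis quickly when they meet antigen. Most steps have several isoenzymes, encoded by separate genes that differ in tissue and regulation.

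Levels are given as TPM, the deposited abundance scaled to transcript length and library, which allows genes to be compared. Gene counts summed to between 14152590 and 16251564 a library, and the 32 genes held between 0.529% and 0.562% of them. All 10 T cell markers checked passed 1 TPM in every library, with a summed level of 8071 to 9074 TPM. The summed levels of the other lists were 1.12 to 2.09 TPM for 7 B cell genes, 1.44 to 2.87 TPM for 10 myeloid genes and 3.34 to 5.14 TPM for 2 CD8 genes. They were 5.08 to 8.57 TPM for 10 erythroid and platelet genes and 5.48 to 8.14 TPM for 8 stromal, endothelial and epithelial genes. The highest of each were Cd79a, Itgam, Cd8b1, Hbb-bs and Epcam. Epcam, the epithelial gene of the last list, was at 5.24 ± 0.883 TPM. Fcgr1 had 0 counts in every library, as had Ppbp and Gp1bb, and Cd8a had 3 counts in all. In a bulk sample, fewer cells of a type and less RNA per cell cannot be told apart. Library 2 stood apart from the others over all genes: the mean chi-square per gene was 18.1 between libraries 1 and 2 and 18.5 between libraries 2 and 3, against 5.69 between libraries 1 and 3. The median chi-square differed less, at 3.35, 3.29 and 2.15 in the same order.

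Of the 32 genes, 31 were at 1 TPM or more in every library, beside 45.5% of all protein-coding genes, and 9 were at 100 TPM or more in every library, beside 7.27%. Hk3 was the exception to the lower limit. Their median level was 49.0, 54.8 and 50.2 TPM in libraries 1, 2 and 3, or 51.3 ± 3.05 TPM, against 27.9 ± 0.752 TPM over the protein-coding genes that passed 1 TPM. By their means, 11 genes lay at 100 TPM or more, 10 between 10 and 100 TPM and 11 below 10 TPM. Eno1, Ldha, Aldoa, Pkm and Pfkp together held 70.3% ± 1.51 of the summed TPM of all 32. At each step with several of these genes, 1 gene held most of the transcripts except at the bifunctional phosphofructokinase-2 step.

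**Figure D1:**
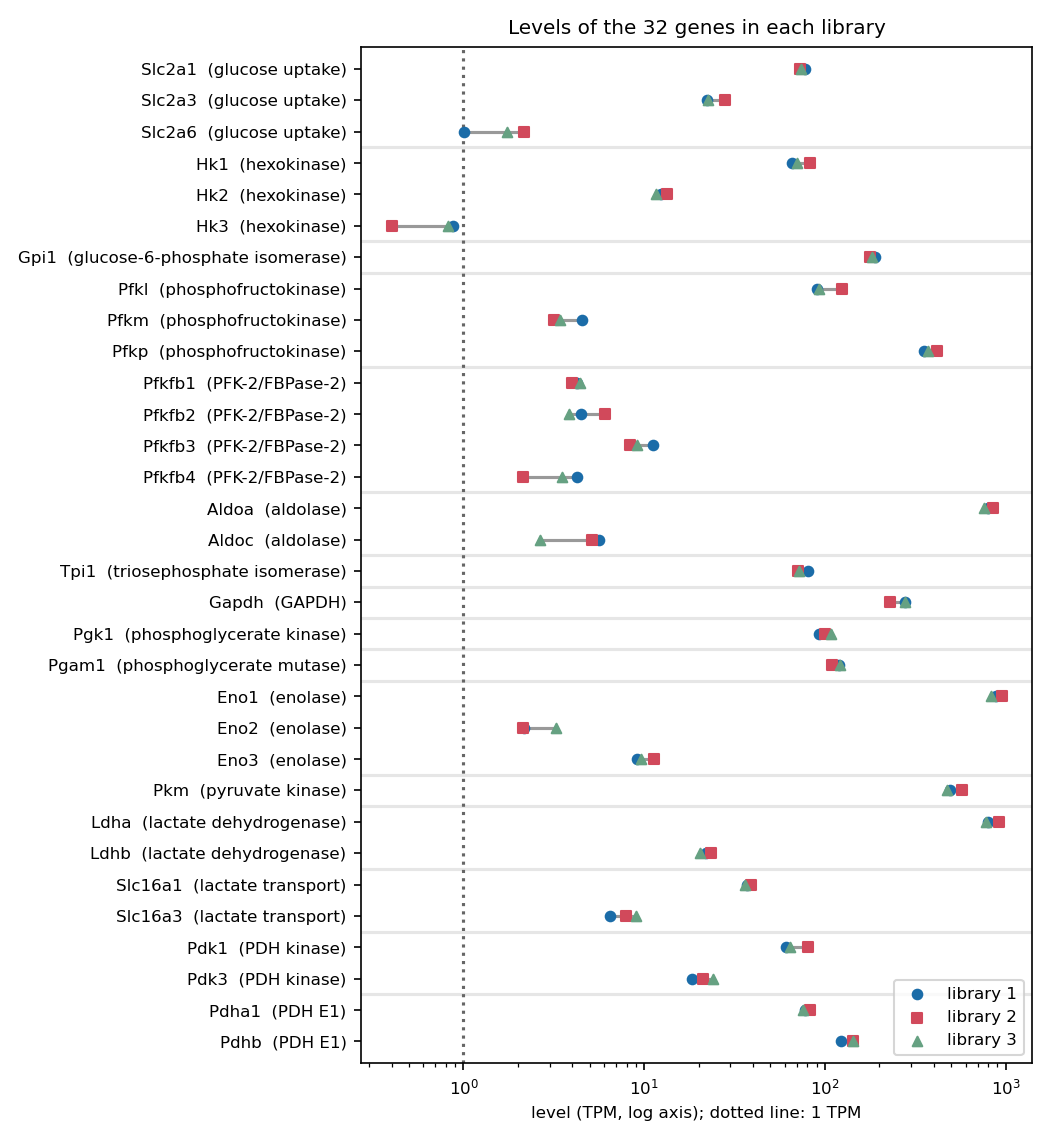
Level in TPM (log axis) of the 32 genes, 1 row per gene in pathway order with its step in brackets, 1 symbol per library. Most rows are narrow beside the distances between genes, and Hk3 alone lies below the dotted line at 1 TPM in all 3 libraries.

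The sequence choice that sets the pyruvate kinase isoform is shown first, because the transcript values below rest on it. Pkm encodes both the M1 form, typical of muscle and brain, and the M2 form, typical of proliferating cells, through a pair of mutually exclusive coding exons. On GRCm38/mm10 Pkm lies at chr9:59656368-59679375 on the + strand. The upstream exon, specific to M1, is at chr9:59675029-59675195, and the downstream exon, specific to M2, at chr9:59675568-59675734. Each is exon 9 of the transcript that holds it and 167 bases long, and the pair differ at 64 positions, an identity of 61.7%. Both were read from the GENCODE M21 transcript sequences, 5′ to 3′, with the differing bases in capitals.
Pkm M1 exon: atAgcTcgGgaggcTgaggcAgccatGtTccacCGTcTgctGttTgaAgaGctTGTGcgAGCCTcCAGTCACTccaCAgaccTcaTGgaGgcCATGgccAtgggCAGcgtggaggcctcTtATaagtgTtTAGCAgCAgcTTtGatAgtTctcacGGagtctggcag
Pkm M2 exon: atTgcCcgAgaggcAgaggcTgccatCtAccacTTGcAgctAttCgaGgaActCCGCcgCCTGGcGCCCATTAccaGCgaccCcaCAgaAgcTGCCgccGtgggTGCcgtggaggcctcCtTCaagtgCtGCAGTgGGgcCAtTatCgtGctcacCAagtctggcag

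Pkm transcripts with the M2 exon made up nearly all of what could be assigned to either form. By exons with exactly the ends given above, Pkm-201 was the only annotated transcript with the M2 exon and Pkm-202 the only one with the M1 exon. Pkm-201 was at 436.6, 507.0 and 426.0 TPM in libraries 1, 2 and 3. Pkm-202 was at 31.2, 41.6 and 26.2 TPM. Every library thus had the M2 transcript above the M1 transcript, with no overlap. The M2 transcript held 93.3%, 92.4% and 94.2% of the TPM of the pair, or 93.3% ± 0.892. The other 9 of the 11 Pkm transcripts hold neither exon with exactly these ends and had 4.64% ± 0.570 of the gene's TPM. Whether they hold part or all of either sequence within other exons was not checked. These are the authors' estimates per transcript, and no counts of reads across the exon junctions were used here.

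Glucose enters T cells through facilitative transporters of the Slc2a family. Slc2a1, the widely expressed basal transporter GLUT1, was at 77.8, 73.0 and 74.2 TPM in libraries 1, 2 and 3. Slc2a3, the high-affinity transporter GLUT3, was at 22.3, 28.1 and 22.6 TPM. Over all annotated transcripts Slc2a1 was the higher of the pair in every library, by a ratio of 3.12 ± 0.460. Library 2 was the lowest for Slc2a1 and the highest for Slc2a3. The leading protein-coding transcripts were closer, and their order turned in library 2. Slc2a1-201 was at 27.4, 23.1 and 25.0 TPM and Slc2a3-201 at 18.75, 24.0 and 20.2 TPM. Slc2a6, a transporter of the same family found in leukocytes, was at 1.01, 2.15 and 1.74 TPM, below Slc2a1 and Slc2a3 in every library. Of the 11 other glucose transporter genes listed, Slc2a8 reached 12.9 ± 2.35 TPM and Slc2a9, better known for urate transport, 4.62 ± 0.729 TPM. The other 9 were under 1 TPM, among them Slc2a4, the insulin-responsive transporter of muscle and fat, at 0.0800 ± 0.0854 TPM, a value given after it was seen.

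Hexokinase phosphorylates glucose and so traps it in the cell. Hk1, the constitutive isoenzyme bound to mitochondria, was at 65.9, 82.6 and 70.0 TPM. Hk2, the isoenzyme usually induced by growth signals, was at 12.5, 13.3 and 11.6 TPM. Hk1 exceeded Hk2 in every library, by a ratio of 5.84 ± 0.480, and held 84.6% ± 1.31 of the TPM of the 3 hexokinase genes. Hk3, known from myeloid cells, was at 0.87, 0.40 and 0.82 TPM, under 1 TPM in all 3 libraries. Unc5a, which overlaps Hk3 on the opposite strand, was at 11.6 ± 1.47 TPM, and the strand setting of the counts is not given in the sources used here, so reads of overlapping genes cannot be told apart. Adpgk, an ADP-dependent glucokinase, was at 26.6 ± 2.38 TPM, between Hk1 and Hk2, and with all listed genes of the step counted the share of Hk1 was 64.3% ± 3.64. Hkdc1 was under 1 TPM.

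Gpi1, which interconverts glucose 6-phosphate and fructose 6-phosphate and is the only gene of its step, was at 189, 178 and 183 TPM. Its mean was 183.5 ± 5.15 TPM, the smallest SD relative to the mean among the 32 genes, 2.80%.

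Phosphofructokinase commits sugar to glycolysis. Pfkp, the platelet-type subunit, was at 353, 417 and 370 TPM, and Pfkl, the liver-type subunit, at 90.2, 123.7 and 92.3 TPM. Both were highest in library 2, and Pfkp exceeded Pfkl in every library, by a ratio of 3.76 ± 0.343. Pfkm, the muscle-type subunit, was at 4.54, 3.16 and 3.41 TPM, far below both, and its share of the 3 subunits was 0.776% ± 0.220. Pfkp held 78.3% ± 1.45. Pfkm and Pfkp each overlap a gene on the opposite strand, Senp1 at 32.1 ± 1.98 TPM and Pitrm1 at 31.5 ± 4.19 TPM, so the low Pfkm value in particular is uncertain.

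The 4 Pfkfb genes encode bifunctional enzymes that make and break fructose 2,6-bisphosphate, the strongest activator of phosphofructokinase. Pfkfb3, whose product has mainly kinase activity, was at 11.1, 8.33 and 9.14 TPM, the highest of the 4 in every library. Pfkfb2, the heart-type enzyme, was at 4.49, 6.04 and 3.86 TPM. Pfkfb1, the liver-type enzyme, was at 4.25, 3.97 and 4.4 TPM. Pfkfb4, a further inducible form, was at 4.27, 2.13 and 3.53 TPM. The last 3 changed order between libraries and overlapped, so no order among them is given. Pfkfb3 held 43.5% ± 2.72 of the TPM of the 4 genes, the smallest leading share of any step. Tigar, a fructose-2,6-bisphosphatase-like enzyme, was at 8.33 ± 1.37 TPM. Apex2 on the strand opposite Pfkfb1 was at 10.6 ± 2.56 TPM and Yod1 opposite Pfkfb2 at 4.28 ± 1.16 TPM, above the first and near the second of the genes they overlap.

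**Figure D2:**
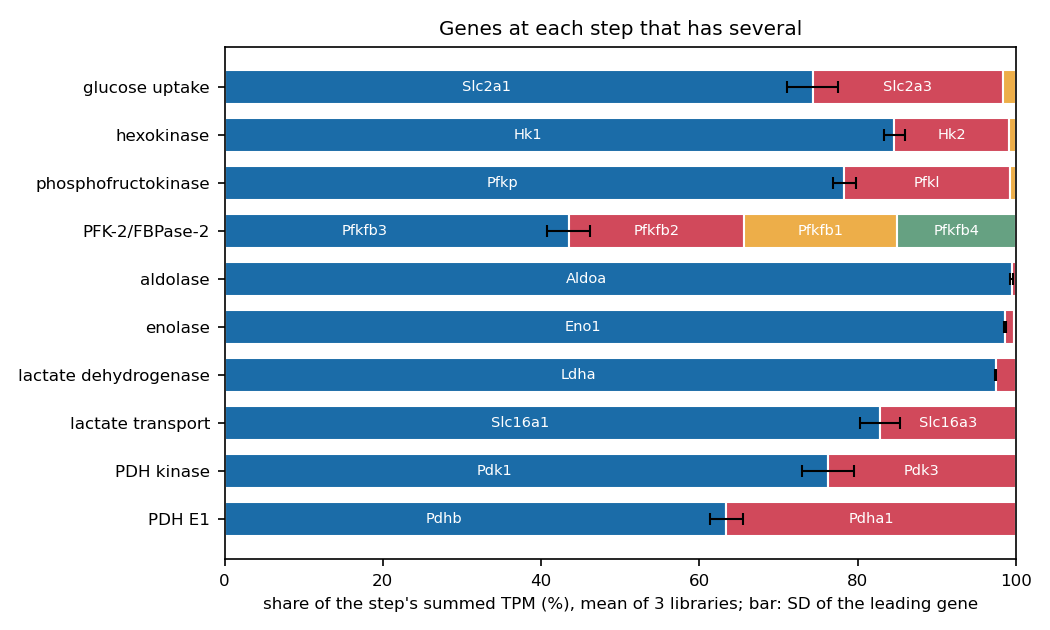
Share of the summed TPM at each of the 10 steps with several genes, mean of 3 libraries, with the SD of the leading gene. The TPM of a gene takes in all its annotated transcripts, protein-coding or not. Aldoa, Eno1 and Ldha hold nearly the whole of their steps, whereas Pfkfb3 holds 43.5% and the E1 subunits of pyruvate dehydrogenase are the most even pair. Segments under 8% are not named.

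Aldolase cleaves fructose 1,6-bisphosphate into triose phosphates. Aldoa, the muscle-type aldolase that most cells use, was at 801, 852 and 756 TPM. Aldoc, the brain-type form, was at 5.59, 5.11 and 2.66 TPM, so that Aldoa held 99.5% ± 0.177 of the pair. A second identifier also named Aldoa, annotated beside the main one without overlap, had 3, 3 and 0 counts and was not added.

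Tpi1, which interconverts the triose phosphates, was at 80.7, 70.6 and 72.1 TPM, highest in library 1. Gapdh, which oxidises glyceraldehyde 3-phosphate and is often used as a reference gene, was at 278, 230 and 277 TPM. Library 2 was the lowest for both, by a clear margin for Gapdh alone. Pgk1, the kinase that makes the first ATP of the pathway, was at 92.5, 99.7 and 109 TPM, and Pgam1, the mutase that follows it, at 120, 110 and 122 TPM. The libraries of Pgk1 and Pgam1 did not overlap, though the lowest Pgam1 value, in library 2, was close to the highest Pgk1 value, in library 3. Gapdhs and Pgk2, both known from sperm, were under 1 TPM, Pgam2, the muscle mutase, was at 1.08 ± 0.381 TPM, and Bpgm, which makes 2,3-bisphosphoglycerate, at 28.8 ± 3.38 TPM. Iffo1 overlaps Gapdh on the opposite strand and was at 13.1 ± 0.620 TPM.

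Enolase makes phosphoenolpyruvate. Eno1 was the highest of the 32 genes in every library, at 890, 949 and 829 TPM. Eno3, the muscle enolase, was at 9.10, 11.3 and 9.57 TPM, and Eno2, the neuronal enolase, at 2.17, 2.14 and 3.25 TPM. Eno1 thus held 98.6% ± 0.136 of the 3 genes, and Eno3 exceeded Eno2 in every library. Eno1b, an annotated protein-coding gene 99.5% identical to Eno1, was at 29.0, 17.0 and 24.8 TPM, with a posterior SD of up to 30.1% of its count, so its level is uncertain. Pklr, the liver and red cell pyruvate kinase, had 1 count in all, and Pkm, at 494, 572 and 474 TPM, was the only pyruvate kinase gene above 1 TPM. Gm49759, on the same strand within the span of Pkm, was at 17.2 ± 1.46 TPM.

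Lactate dehydrogenase reduces pyruvate to lactate. Ldha, the form that favours lactate production, was at 804, 917 and 777 TPM. Ldhb, the form of heart that favours lactate use, was at 22.0, 23.3 and 20.5 TPM. In TPM both were highest in library 2 and lowest in library 3, though for Ldhb the highest was library 3 on TMM-scaled CPM, by 1.06-fold over the lowest. The TPM ratio of Ldha to Ldhb varied little, at 36.5, 39.4 and 38.0, or 38.0 ± 1.42. Ldhc and Ldhd were under 1 TPM. Among the proton-linked transporters that carry lactate, Slc16a1, encoding MCT1, was at 37.2, 38.9 and 36.1 TPM. Slc16a3, encoding MCT4, which is linked to lactate export from strongly glycolytic cells, was at 6.50, 7.92 and 8.97 TPM. Slc16a1 exceeded Slc16a3 in every library, by 4.89 ± 0.849, and Slc16a7 and Slc16a8 were under 1 TPM. Emb and Bsg encode the partner proteins that carry these transporters to the membrane, and stood at 588 ± 25.6 and 171 ± 8.09 TPM. Bsg is named here after its value was seen.

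At the mitochondrial entry, Pdhb, the beta subunit of the E1 component, was at 122, 143 and 144 TPM, and Pdha1, the alpha subunit, at 77.2, 82.5 and 75.7 TPM. Pdhb exceeded Pdha1 in every library, by 1.74 ± 0.158, on the TPM scale only. From counts without length correction the mean share of Pdhb was 49.3% ± 2.44. Pdha1 was then the higher in libraries 1 and 2, and Pdhb in library 3. Pdk1, a kinase that inhibits E1 and is a known target of hypoxia signalling, was at 60.8, 80.4 and 64.3 TPM. Pdk3 was at 18.4, 21.1 and 24.2 TPM. Over all annotated transcripts Pdk1 exceeded Pdk3 by 3.26 ± 0.576. For each gene's only protein-coding transcript the order was the reverse in every library. Pdk1-201 was at 4.27, 6.19 and 7.03 TPM and Pdk3-201 at 17.4, 21.1 and 22.0 TPM. Pdk2 was at 7.07 ± 1.73 TPM, and Pdk4, the kinase raised by fasting, was under 1 TPM. The ratio of Ldha to Pdha1 was 10.6 ± 0.459.

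Of the 30 other isoenzyme genes listed for these steps, 8 had a mean of 1 TPM or more, 22 were below it and Pdha2, a testis gene, had no counts. A count of 0 allows up to 3 counts, or 0.185 to 0.212 CPM (counts scaled to the library's gene total, not to length), and that limit covers counting error only.

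Transcript estimates divided several of these genes between protein-coding transcripts and transcripts of other annotated classes. The same transcript led in every library in 21 of 32 genes. It was annotated as protein-coding in 19 of them, and Slc2a1 and Pdk1 were the other 2. In the other 11 genes the leader changed between libraries. By mean TPM the leader was protein-coding in 28 of 32 genes and by mean share of the gene in 30. Pfkfb2 and Eno2 have a leader of another class by the first measure only. The median share of the transcript leading by mean TPM was 65.4% ± 3.93 of a gene's TPM. Protein-coding transcripts held under 50% of the TPM in 6 genes, namely Slc2a1, Pdk1, Pfkfb2, Eno2, Gpi1 and Pfkfb1, which are named here after their values were seen. On expected counts, which are not divided by length, they did so in 3, namely Slc2a1 at 45.1%, Eno2 at 38.2% and Pdk1 at 19.2%, while Gpi1, Pfkfb1 and Pfkfb2 had 65.9%, 64.6% and 55.1%. The other classes in the annotation are nonsense-mediated decay, retained intron and processed transcript. A nonsense-mediated decay transcript has a reading frame with an early stop codon, which normally marks an RNA for destruction. A processed transcript has no reading frame assigned.

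In Slc2a1 the leading transcript was one marked for decay. The transcript Slc2a1-204, annotated to nonsense-mediated decay, was at 58.3%, 64.1% and 61.8% of the gene's TPM, above the full-length Slc2a1-201 at 35.2%, 31.7% and 33.7% in every library. On expected counts nonsense-mediated decay transcripts held 54.9% of the gene.

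Pdk1 was led by transcripts without an assigned reading frame. The processed transcript Pdk1-208 held 47.5%, 48.7% and 47.7% of the gene's TPM, followed by the processed transcript Pdk1-206 at 25.5%, 25.4% and 23.4%. Protein-coding Pdk1-201 had 7.02%, 7.70% and 10.9%, below both in every library in TPM. On expected counts, which are not divided by length, its mean of 272 was above Pdk1-206 at 113 and below Pdk1-208 at 880. Pdk1-208 lacks 2 exons of Pdk1-201, of 142 and 77 bases, at chr2:71875406-71875547 and chr2:71887382-71887458 on the + strand, both coding. Processed transcripts together held 80.8% of the Pdk1 counts and 91.4% ± 2.09 of its TPM, so by these estimates most of the Pdk1 level given above is of RNA with no annotated protein. Gpi1-201, protein-coding, held 40.2% ± 1.05 of Gpi1 TPM and 65.9% of its counts, beside the shorter decay transcript Gpi1-207 at 33.4% ± 2.81.

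In the phosphofructokinase genes, Pfkp-201 held 46.5% ± 1.40 of the TPM and the short decay transcript Pfkp-203 18.9% ± 1.92. On expected counts decay transcripts held 5.55% of Pfkp. Pfkl-201 held 59.3% ± 2.98 and the retained-intron transcript Pfkl-208 19.5% ± 1.35. Hk2-201 held 65.8% ± 3.79 and the short processed transcript Hk2-202 30.8% ± 5.51, but protein-coding transcripts held 95.5% of Hk2 counts, since a short transcript gains weight in TPM. Gapdh-201 held 49.0% ± 1.19 and the short processed transcript Gapdh-208 24.3% ± 2.75, but processed transcripts held 10.4% of Gapdh counts and retained-intron transcripts 20.8%. The posterior SD reached 30.7% of the count for Gapdh-201 and 18.0% for Gapdh-208. In each of these pairs the first transcript led in every library.

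Aldoa and Hk1 were each divided mainly between coding transcripts. Aldoa-201 held 47.7%, 34.6% and 49.8% of the gene and Aldoa-203, with the same coding sequence, 35.5%, 44.9% and 30.3%, so the order turned in library 2. Hk1-201 held 44.8%, 56.3% and 58.3% and Hk1-202, whose coding sequence differs, 49.5%, 23.9% and 37.4%, so the order turned in library 1. Tpi1-205 led the retained-intron Tpi1-204 in every library, with 77.1% ± 14.5 against 15.0% ± 10.2, though the posterior SD of Tpi1-204 reached 110% of its count. Ldhb-201 led Ldhb-204 with 60.7% ± 12.3 against 31.3% ± 11.2, though the posterior SD of Ldhb-204 reached 46.3% of its count. For 9 genes of 10 TPM or less (Slc2a6, Hk3, Pfkm, Pfkfb1, Pfkfb2, Pfkfb4, Aldoc, Eno3 and Slc16a3) the 2 leading transcripts overlapped or changed order over the libraries, or had a posterior SD above their own count, and no order is given. Eno2 is of the same kind, with the retained-intron Eno2-212 at 17.3% ± 7.44 and protein-coding Eno2-215 at 19.5% ± 11.4. At the other extreme, 6 genes had a leading share of 90% or more, among them Slc16a1, with 1 annotated transcript, Pgk1 and Ldha.

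**Figure D3:**
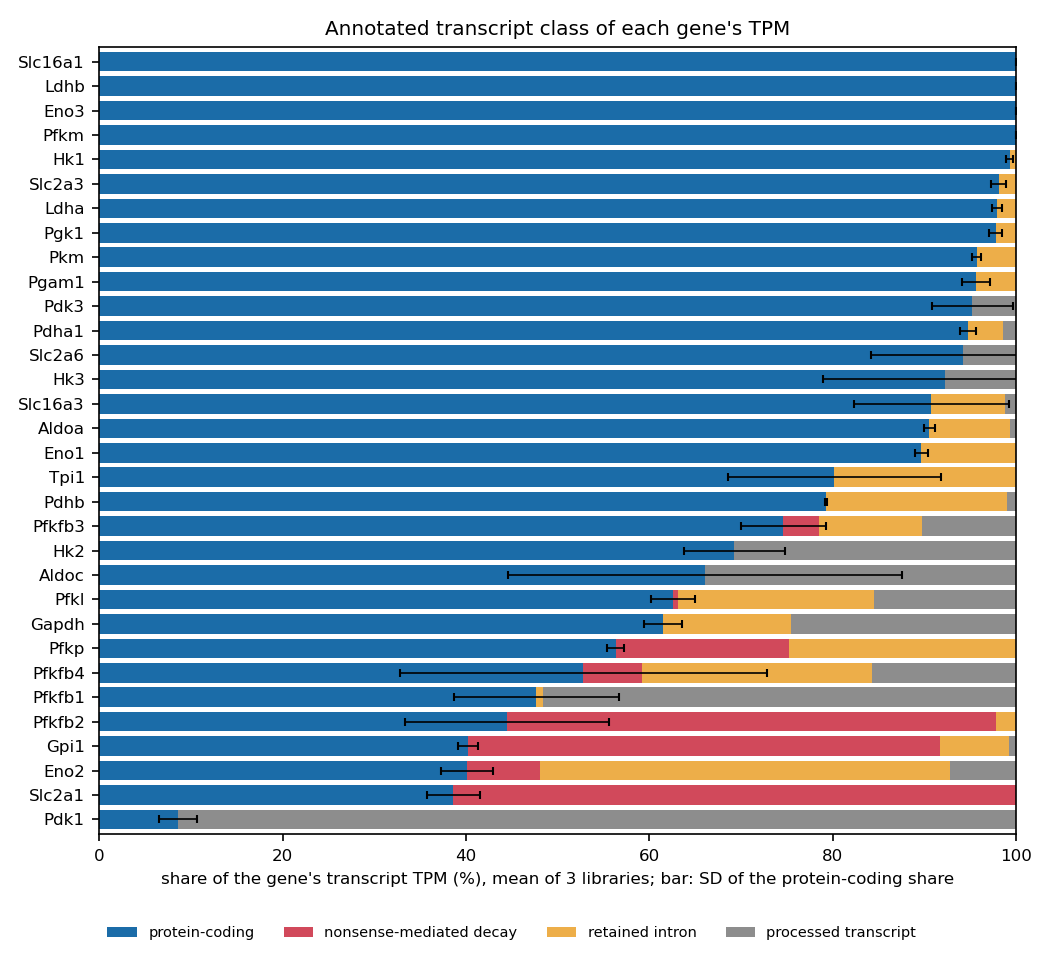
Share of each gene's transcript TPM by annotated class, mean of 3 libraries, with the SD of the protein-coding share, sorted by that share. Pdk1, Slc2a1, Eno2, Gpi1, Pfkfb2 and Pfkfb1 lie below 50% protein-coding, and the wide bars belong mostly to genes of low level.

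The libraries differed beyond counting noise for 21 of the 32 genes (chi-square test of homogeneity on rounded expected counts, Benjamini-Hochberg adjusted p under 0.05), beside 54.7% of the 13949 genes tested. That share, 65.6%, is near the background, and counting noise is a narrow yardstick for these libraries, since the median chi-square over all genes was 6.04 times its expected value. After division by that inflation, 3 of 32 passed, beside 3.84% of all genes. These were Pkm, Ldha and Pfkl, all highest in library 2, with 1.16-fold, 1.14-fold and 1.28-fold between the highest and the lowest library on TMM-scaled CPM and adjusted chi-square p of 0.000569, 0.00186 and 0.0143. In the second deposited gene table Pfkl passed the uncorrected test (adjusted chi-square p of 0.000122), whereas Pkm and Ldha did not (0.190 and 0.296). Without library 2 that test passed 10 of 32 genes, beside 25.5% of all genes, and those 3 were not among them.

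Library differences in level were small for most of the set. The median ratio of the highest to the lowest library was 1.18-fold, beside 1.26-fold over all genes tested. Library 2 was the highest for 15 genes, library 3 for 10 and library 1 for 7, where over all genes tested the shares were 36.8%, 32.3% and 30.9%. Of the 21 genes past the test, 9 were highest in library 2, beside 39.3% of all genes past it. Hk2 varied least, 1.01-fold, and Eno2 (2.43-fold), Hk3 (2.08-fold) and Aldoc (1.98-fold) varied most, all of them under 6 TPM. Gapdh went the other way from Ldha, Pkm and Pfkl, since it was lowest in library 2 with 1.26-fold between libraries, and Eno1 over Gapdh was 3.20, 4.13 and 2.99 in libraries 1, 2 and 3.

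**Figure D4:**
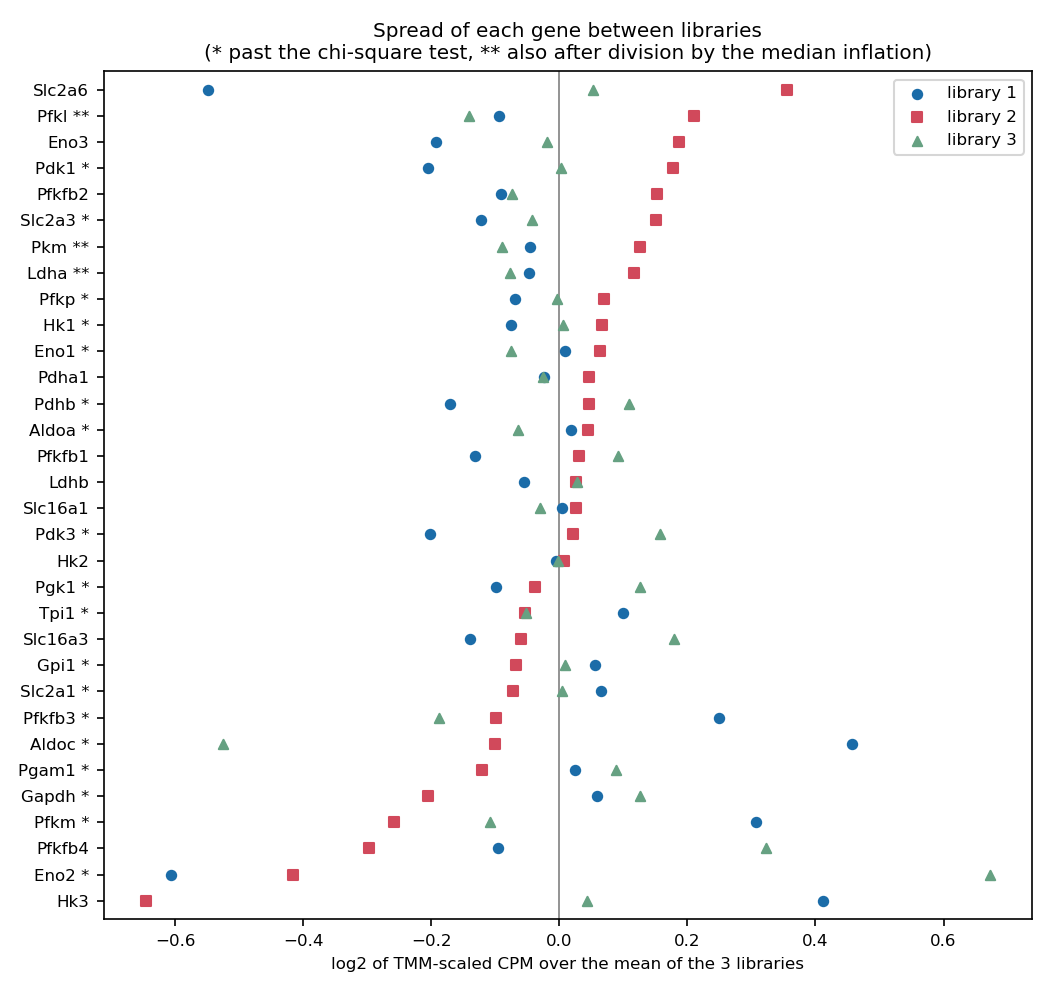
TMM-scaled CPM of each gene in each library over its mean of 3 libraries (log2), sorted by library 2 over the mean of the other libraries. One star marks the 21 genes past the chi-square test, and 2 stars mark Pfkl, Pkm and Ldha, which also passed after division by the median inflation.

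Processed pseudogenes of glycolytic genes are frequent in the mouse genome, and they bear on how these genes can be counted. A search of the annotated transcripts, at 90% identity or more over at least 300 bases and outside the gene's own locus, found 199 copies for 12 of the 32 genes. Gapdh had 160, of which 152 are annotated pseudogenes, Ldha 11, Eno1 and Pkm 6 each and Pgk1 4. Aldoa and Pgam1 had 3 each, Tpi1 had 2, and Gpi1, Ldhb, Pdha1 and Pdhb had 1 each. In the first gene table, that of the expected counts, the copies of Gapdh together took 19.2% ± 0.855 of the counts of Gapdh and its copies, those of Eno1 4.34% ± 0.367 and those of Pgk1 3.57% ± 0.383. The authors' counting could divide reads among copies, but these shares do not measure how uncertain the levels are. The posterior SD reached 0.832% of the count for Gapdh, 0.621% for Eno1 and 1.93% for Pgk1. How far the copies shift these levels was not tested.

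The likeness of such copies is shown by Eno1, at chr4:150236721-150248879 on the + strand, and its processed pseudogene Gm4735, at chr2:80837141-80838442 on the + strand. Over the 1302 coding bases of Eno1 they differ at 5 positions, and the longest identical run is 725 bases. Bases 1174 to 1233 of the coding sequence, counted from the start codon, hold 2 of the differences, in capitals.
Eno1: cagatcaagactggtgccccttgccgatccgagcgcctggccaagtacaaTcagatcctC
Gm4735: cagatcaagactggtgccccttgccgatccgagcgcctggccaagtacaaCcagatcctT
Gm4735 was estimated at 19.3, 40.8 and 12.8 TPM in libraries 1, 2 and 3, or 24.3 ± 14.6 TPM, beside 889 TPM for Eno1, with a posterior SD of up to 44.8% of its count. Library 2 was the highest, and without it the mean was 16.05 TPM.

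The second deposited gene table, of whole-number counts on GENCODE M4, gave very different levels for part of the set. The ratio of its CPM to that of the first table was 0.0122 for Pgam1, 0.0458 for Pgk1, 0.0907 for Gapdh and 0.106 for Eno1. It was 0.340 for Ldha, 0.425 for Pkm and 0.560 for Aldoa, whereas the median over the 6584 genes at 20 CPM or more was 1.54. In the second table these genes are thus listed far below the first, and only 3.08% of all those genes had a ratio under 0.1. The 12 genes with copies had a median ratio of 0.492, with a range of 0.0122 to 1.54, and the 20 without had 1.71, with a range of 0.452 to 3.02. The limit of 20 CPM was not applied to these groups. Many genes without copies lay below it in the first table, such as Hk3 at 1.16 CPM and Pfkfb2 at 7.10 CPM. Of the genes with copies only Ldhb did, at 13.6 CPM. The groups thus differ in level as well as in copies. Pgam1-ps2 is identical to Pgam1 over 765 bases and Pgk1-rs7 to Pgk1 over 1255 bases. How the second table treated reads that match several genes is not given in the sources used here, and the part of the copies in these ratios was not tested. Pfkfb2, with no copy by this rule, was the only one of the 20 below 1, at 0.452. Gm29427 overlaps Pfkfb2 on the same strand and so falls outside the rule. It is identical to Pfkfb2 over 1118 bases and had 0 counts in every library in the first table.

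**Figure D5:**
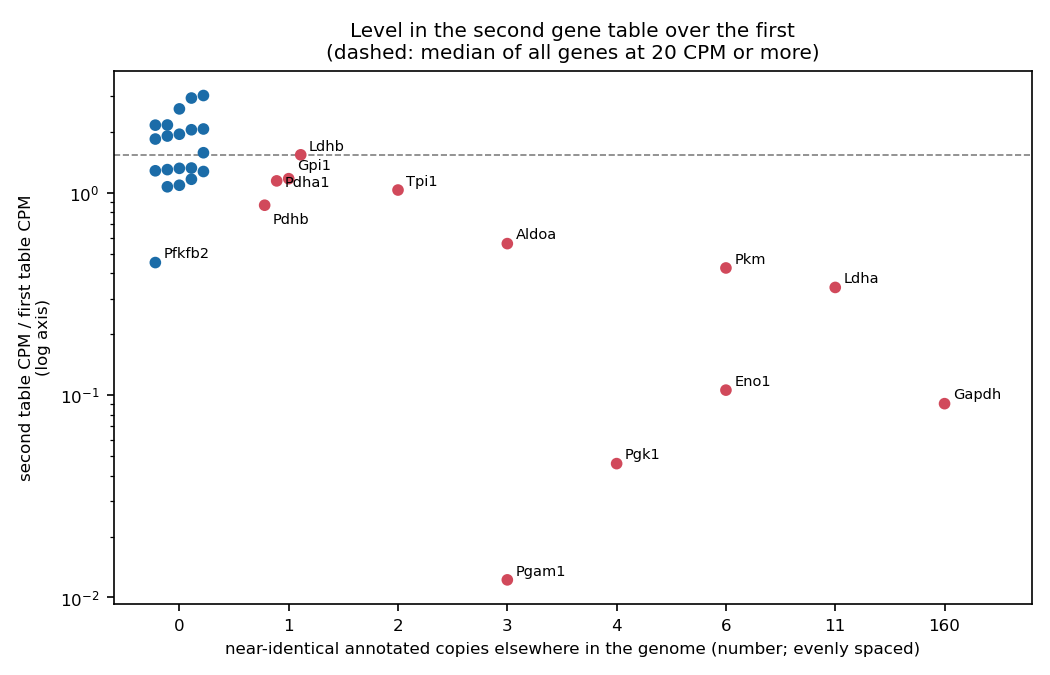
Ratio of CPM in the second gene table to CPM in the first (log axis) against the number of near-identical annotated copies, for the 32 genes. Red points are the 12 genes with copies and blue points the 20 without. The dashed line is the median ratio of 1.54 over all genes at 20 CPM or more, a limit not applied to the points.

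Neighbouring pathways were read from lists of genes chosen by function, with the same limit of 1 TPM in every library. All 8 genes of the pentose phosphate pathway passed it, led by Taldo1 at 169 ± 7.90 TPM and Tkt at 109 ± 2.52 TPM, which both exchange carbon between sugar phosphates. All 5 genes of the serine branch passed, with Phgdh, which draws 3-phosphoglycerate out of glycolysis, at 57.4 ± 2.99 TPM and Shmt2 at 45.7 ± 6.11 TPM. All 8 glycogen genes passed, led by Ugp2 at 42.8 ± 5.16 TPM and Pgm1 at 31.6 ± 1.28 TPM. Gluconeogenesis was the exception: 3 of 7 genes passed, namely G6pc3 at 24.4 ± 6.61 TPM, Pck2 at 6.74 ± 0.717 TPM and Pcx, while Pck1, Fbp1, Fbp2 and G6pc, the genes typical of liver, kidney and muscle, were between 0.0167 and 0.297 TPM on average.

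Pyruvate users in mitochondria were all detected. Mpc1 and Mpc2, the subunits of the mitochondrial pyruvate carrier, were at 148 ± 11.6 and 102 ± 12.4 TPM. Of the rest of the pyruvate dehydrogenase complex and its phosphatases, 6 of 6 passed, led by Dld at 73.3 ± 11.5 TPM and Dlat at 29.98 ± 5.39 TPM. All 16 genes of the tricarboxylic acid cycle passed, with Mdh2 at 314 ± 29.4 TPM and Sdha at 226 ± 18.5 TPM, and their median was 93.5 ± 3.27 TPM. Of the NADH shuttles 7 of 8 passed, with Got1 at 332 ± 20.03 TPM and Mdh1 at 184 ± 4.38 TPM for the malate-aspartate shuttle, while Gpd1 of the glycerol phosphate shuttle was at 0.0633 ± 0.0777 TPM and its partner Gpd2 at 19.2 ± 2.22 TPM.

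Among 13 regulators of glycolytic genes and their partners, 12 passed 1 TPM. Txnip, which restrains glucose uptake, was at 388, 335 and 390 TPM, lowest in library 2. Hif1a, the oxygen-regulated factor whose known targets include many glycolytic genes, was at 347, 424 and 331 TPM, and Myc, another activator of them, at 116, 164 and 129 TPM. Both were highest in library 2, as were Pkm, Ldha and Pfkl. The libraries are technical replicates of 1 biological replicate, and library 2 stood apart over all genes. No regulation between these genes is read from it, and none was tested. Hif1a and Myc are named after their values were seen. Mlxipl, the glucose-sensing factor of liver, was at 0.243 ± 0.265 TPM. The numbers past the chi-square test between libraries were 3 of 8 for the pentose phosphate genes, 2 of 5 for the serine branch, 4 of 8 for glycogen, 9 of 16 for the cycle and 9 of 12 for the regulators, beside the 54.7% of all genes.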

How the data were processed

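PolyA RNA of 1 mouse was sequenced in 3 libraries. Per the file headers, the authors deposited expected counts (estimated counts that divide ambiguous reads among genes), TPM, FPKM, posterior mean TPM, posterior SDs of the counts and, for transcripts, the percent of the gene (unused), on mm10 with GENCODE M21. A second deposited table gives whole-number counts on GENCODE M4 (22457 genes). The sources used here name no aligner, quantifier, kit or strand setting. Rows that name no mouse gene (26345 rows of tRNA, spike-ins and phiX) held 0.188% to 0.579% of counts and were left out.

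Members, lists and tests were chosen with earlier results of these data known. All 32 symbols matched, also in the second table. Named are all members, other isoenzymes at 1 TPM or more, of each pathway list the 2 highest genes and those under 1 TPM, and the 2 leading transcripts where the second holds 10% or more. Rounded expected counts entered a chi-square test of equal shares over the libraries, gene by gene, with TMM effective library sizes (edgeR 4.0.16), a minimum of 30 counts and Benjamini-Hochberg adjusted p under 0.05 over all genes. It was tested on simulated data. Other settings were DESeq2 1.42.0 size factors, total counts, other filters and units, the second table and leaving out each library. Python 3.11.15 with scipy 1.17.1 and R 4.3.3 were used. Some genes and sequences that these rules cover are left out of the text.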

Additional observations from a re-analysis of the deposited data

How the results depend on the processing

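The count of 21 genes past the library test was 21 with DESeq2 size factors and with total counts, 17 without a count filter and 22 of 30 with at least 100 counts, where 54.9%, 54.5%, 25.9% and 57.1% of all genes tested passed. It was 5 of 31 in the second gene table, beside 26.2% of all genes, and 3 once the chi-square was divided by its median inflation, beside 3.84%. Without 1 library it lay between 10 and 17, with 10 when library 2 was left out, beside 25.5%, 38.9% without library 1 and 40.6% without library 3. The number at 1 TPM or more in every library stayed between 24 (at 5 TPM) and 32 (posterior mean TPM), and was 31 without any 1 library. The median level of the 32 genes was 44.9 in posterior mean TPM, 31.2 in FPKM, 79.7 in CPM from expected counts and 45.5 in CPM from the second table, units that are not interchangeable, and 49.6 to 52.5 TPM without 1 library. The median leading share over the 10 steps, 80.6%, was 79.1% in posterior mean TPM, 81.5% in CPM, 77.0% in CPM of the second table, 74.3% with every gene of the step counted and 80.4% to 81.1% without 1 library. By mean share the same gene led at all 10 steps except with CPM, where Pdhb had 49.3% in the first table and 42.5% in the second. The median share of the leading transcript moved to 49.4% in posterior mean TPM, where 27 of 32 leaders kept their place, and to 75.5% on expected counts, where 31 did. It was 64.2% to 67.7% without 1 library. The M2 share of Pkm was 93.4% in posterior mean TPM and 94.4% on expected counts, and 92.9% to 93.8% without 1 library, a setting added after seeing the data. The cause of these changes was not tested. Depth limits the genes under 10 TPM most. No paired analysis was possible because there is only 1 group.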
